A study of Hipposideros armiger and Mus musculus with 20 samples.

Results

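Cirbp and the RNA-binding genes whose symbols begin with Rbm, Srsf or Hnrnp were examined in fat of mice and bats kept warm or cold. The deposited table gives FPKM, a level per length of transcript that is scaled to the size of the library, for 14871 genes. By symbol, 59 of these belong to the set: Cirbp, 34 genes of the Rbm kind (Rbms and Rbmx included), 10 Srsf genes and 14 Hnrnp genes. A minimum of 1 FPKM in 2 libraries of the species was passed by 53 of them in mouse and 53 in bat, 51 of which passed in both. Rbm22 and Rbm6 passed in mouse alone, Rbm41 and Srsf12 in bat alone, and Rbm11, Rbm20, Rbm44 and Rbm46 in neither species. Srsf7, Hnrnpa1, Hnrnpa2b1, Hnrnpc, Rbm3 and Rbm10 were not analysed here.

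The 8 mouse libraries came from the ICR strain, an outbred laboratory stock, and the 12 bat libraries from wild type great roundleaf bats (Hipposideros armiger). Brown fat from between the shoulder blades (interscapular, iBAT) and white fat from under the skin (subcutaneous, sWAT) were sampled in both species, and intra-abdominal white fat (aWAT) in the bat. Animals had spent 1 week at 30 °C or at 10 °C, and each of the 10 groups held 2 libraries, 1 female and 1 male. The sources used here give neither ages nor which libraries came from 1 animal, so the p-values measure only the spread between these libraries.

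Cirbp encodes cold-inducible RNA-binding protein, known from cultured cells in which mild cooling raises it. SR proteins (the Srsf genes) bind exons and help the spliceosome to use nearby splice sites, while hnRNP proteins coat new transcripts and often keep exons out. Rbm genes are a mixed group that share an RNA-binding fold and include splicing factors, regulators of mRNA stability and parts of the spliceosome. What most of these proteins have in common is the RNA recognition motif, whose best conserved stretch is called RNP1.

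A strict form of RNP1 was found in the coding sequence of 18 of 58 members with a full coding sequence (31%), against 84 of 21576 coding genes (0.389%), in GENCODE M21 on build GRCm38. The lines that follow show this stretch in 8 members whose values carry the results, because it is where Cirbp, SR proteins, hnRNPs and Rbm proteins can be read side by side. Capitals mark the 24 bases that encode RNP1, with 9 coding bases in lower case on each side, all 5′ to 3′.
Cirbp: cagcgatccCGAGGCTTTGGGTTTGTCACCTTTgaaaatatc
Rbmx: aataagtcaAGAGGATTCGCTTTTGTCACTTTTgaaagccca
Srsf5: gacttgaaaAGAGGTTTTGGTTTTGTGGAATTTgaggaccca
Srsf2: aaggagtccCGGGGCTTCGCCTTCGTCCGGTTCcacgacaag
Hnrnpdl: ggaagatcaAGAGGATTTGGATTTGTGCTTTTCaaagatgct
Rbm5: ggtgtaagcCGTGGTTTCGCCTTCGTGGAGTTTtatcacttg
Rbm39: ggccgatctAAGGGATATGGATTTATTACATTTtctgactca
Rbms1: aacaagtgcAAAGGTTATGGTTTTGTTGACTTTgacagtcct
Of the 24 bases, Rbmx has 18 in common with Cirbp, Srsf5 has 17, Hnrnpdl and Rbms1 have 16, Srsf2 and Rbm39 have 15 and Rbm5 has 14. Cirbp itself lies at chr10:80165985-80172786 on the forward strand of GRCm38, and its RNP1 spans coding bases 139 to 162. The motif search says nothing of other RNA-binding stretches in the 40 members without a match.

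Changes are given as log2 ratios of FPKM + 1 fitted with limma, ± the standard error, with 2 libraries per group, after subtracting the median change of that comparison over all genes. Calls are at an adjusted p under 0.05 and rest on the change before the median is taken off. The median itself was −0.30 in mouse iBAT and −0.37 in mouse sWAT at 10 °C on the deposited scale. It was −0.03 and 0.01 after median-ratio scaling, which sets the typical gene equal between libraries. Mouse counts are therefore given on both scales. Read totals were unknown. In the bat, some genes used by every cell are listed near 0, so a value near 0 there does not show that a member is missing. Levels of the bat and the mouse are therefore not compared.

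Other cells moved with the groups. Summed FPKM of 8 B lymphocyte markers was 576 and 511 in mouse sWAT at 30 °C, 223 in the female and 3.44 in the male at 10 °C, and between 1.53 and 4.33 in mouse iBAT. The sum of 5 T lymphocyte markers followed the same libraries (192, 202, 62.9 and 1.44 in sWAT). Cell division markers summed to 79.9 and 54.6 in warm mouse sWAT and to 16.6 and 11.2 in the cold. Skeletal muscle markers summed to 1898 and 1512 in warm mouse iBAT, 3.55 and 900 in cold iBAT, and 1738 in the male cold sWAT library against 11.9 to 33.9 in the other mouse sWAT libraries. Brown fat markers were higher in iBAT than in sWAT and in cold than in warm mouse libraries, as the labels have it (21.1 and 27.8 in warm against 2648 and 5315 in cold sWAT). The part of these cells in the results on mouse members was not tested.

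In the mouse, Cirbp was lower in the cold in both fats. In iBAT it measured 25.5 and 21.5 FPKM at 30 °C and 5.03 and 9.76 FPKM at 10 °C (female and male). The groups did not overlap, and the female cold library was the lowest of all 8. The change was −1.30 ± 0.28 (adjusted p = 0.0200), and −1.20 after median-ratio scaling (adjusted p = 0.0448), but missed the threshold with quantile normalization (−1.25, adjusted p = 0.0516). In sWAT it measured 67.4 and 59.7 FPKM in the warm against 27.0 and 21.7 FPKM in the cold, again with no overlap (−0.99 ± 0.28, adjusted p = 0.0212). After median-ratio scaling the sWAT value was −0.91 and missed the threshold (adjusted p = 0.0689), as did the fit of the sWAT groups alone (adjusted p = 0.117). In bulk tissue, fewer cells of a type and less RNA per cell cannot be told apart. Without any 1 of the iBAT libraries the iBAT change ran from −1.75 to −0.86 (the latter without the cold female) and did not pass, and at most 3 genes in all were called in any of those 4 fits.

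Ordered by mean, mouse Cirbp stood at 63.6 FPKM in warm sWAT, 24.4 in cold sWAT, 23.5 in warm iBAT and 7.40 in cold iBAT. Cold sWAT and warm iBAT overlapped, while the other neighbours in this order did not. The difference between the cold responses of the mouse depots was 0.29 ± 0.39 (adjusted p = 0.759), so a difference in size was not detected.

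In the bat, Cirbp did not pass the test in any depot. In sWAT it measured 107 and 79.7 FPKM in the warm against 105 and 108 FPKM in the cold (0.13 ± 0.35, adjusted p = 0.889). In aWAT the warm libraries were at 139 and 86.8 FPKM and the cold ones at 49.4 and 87.0 FPKM (−0.60 ± 0.35, adjusted p = 0.175). In iBAT the values were 85.9 and 66.7 FPKM warm and 41.7 and 73.1 FPKM cold (−0.35 ± 0.35, adjusted p = 0.505). Warm and cold libraries overlapped in each depot, and the lowest values in aWAT and iBAT were those of the cold female libraries. Group means ran from 57.4 FPKM in cold iBAT to 113 FPKM in warm aWAT.

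**Figure D1:**
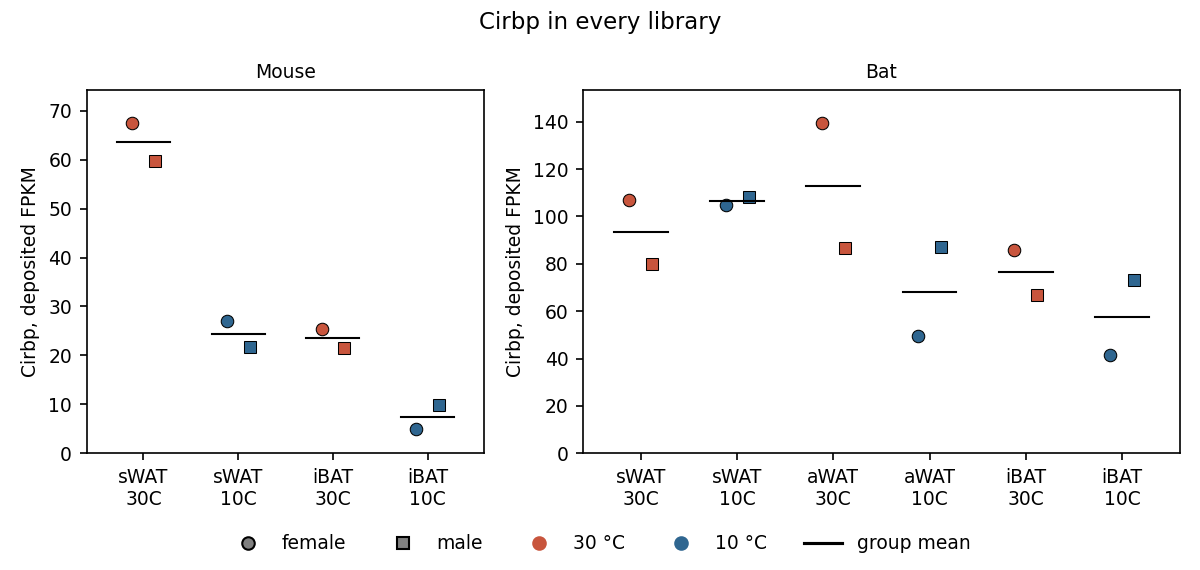
Deposited FPKM of Cirbp (vertical axes) in each mouse and bat library by depot and temperature; circles are females, squares males, red 30 °C, blue 10 °C, and black bars the mean of 2 libraries. Cold mouse libraries lie below warm ones of the same depot (5.03 and 9.76 against 25.5 and 21.5 in iBAT), while warm and cold bat libraries overlap in every depot.

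In mouse iBAT, 15 of the 53 members that passed the minimum fell at 10 °C (28.3%) and none rose. Of all genes tested, 11.2% were called lower and 2.84% higher. After median-ratio scaling 7 members fell and none rose, against 3.56% of all genes called lower and 6.43% higher. These 7 were all among the 15. They were Cirbp, Srsf5, Srsf11, Rbm5, Rbm26, Rbms1 and Hnrnph3. The median change of the 53 was −0.21, beside 0 for all genes by construction. In the same cold iBAT libraries the marker sums of some other cells were lower. Fibroblast markers summed to 253 and 219 FPKM warm and 104 and 102 FPKM cold, macrophage markers to 48.3 and 38.8 against 22.9 and 22.2 FPKM, and endothelial markers to 207 and 188 against 126 and 116 FPKM. The part of these cells in the members' falls was not tested. Fits that left out 1 of the iBAT libraries called far fewer members and far fewer genes in all. A fit of the iBAT groups alone called 28 members, where 3324 of 9003 genes were called. The fit of all 4 groups called 1506 of 10689 genes.

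In mouse sWAT, 34 of the 53 fell and 1 rose, where 26.8% of all genes were called lower and 7.06% higher. The median change of the 53 was −0.40. After median-ratio scaling 9 fell and 1 rose, against 6.64% of all genes called lower and 11.1% higher. Those 9 were Rbm39, Rbm33, Rbm6, Rbm43, Rbm26, Rbm22, Srsf5, Hnrnpf and Hnrnph3. The B lymphocyte and cell division sums given earlier were lower in the same cold libraries. The count of members called moved with the sWAT library left out, and so did the count of all genes called. Both were lower without either warm library or the male cold one, which had few lymphocyte and many muscle transcripts. Without the female cold library both were higher. A fit of the sWAT groups alone called no member and no gene, while 42 members (79.2%, beside 48.8% of all genes) had an unadjusted p under 0.05 in the fit of all 4 groups.

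The mouse depots share no library in these 2 comparisons. They were fitted together with a spread shared by all groups, and which libraries came from the same animal is not given. The 2 lists are therefore not independent. The share that fell in sWAT was 64.2% of the 53 members and 26.8% of all genes. After median-ratio scaling it was 17% and 6.64%. The overlaps of members and of all genes therefore start from unequal shares. All 15 members that fell in iBAT were among the 34 that fell in sWAT (100% of the first list and 44.1% of the second). Over all genes, 516 of the 1202 that fell in iBAT also fell in sWAT (42.9%), which is 18.0% of the 2867 that fell there. After median-ratio scaling the overlap was 3 members, Srsf5, Hnrnph3 and Rbm26, which is 42.9% of the 7 and 33.3% of the 9, beside 62 genes in all (16.3% of 381 and 8.73% of 710).

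**Figure D2:**
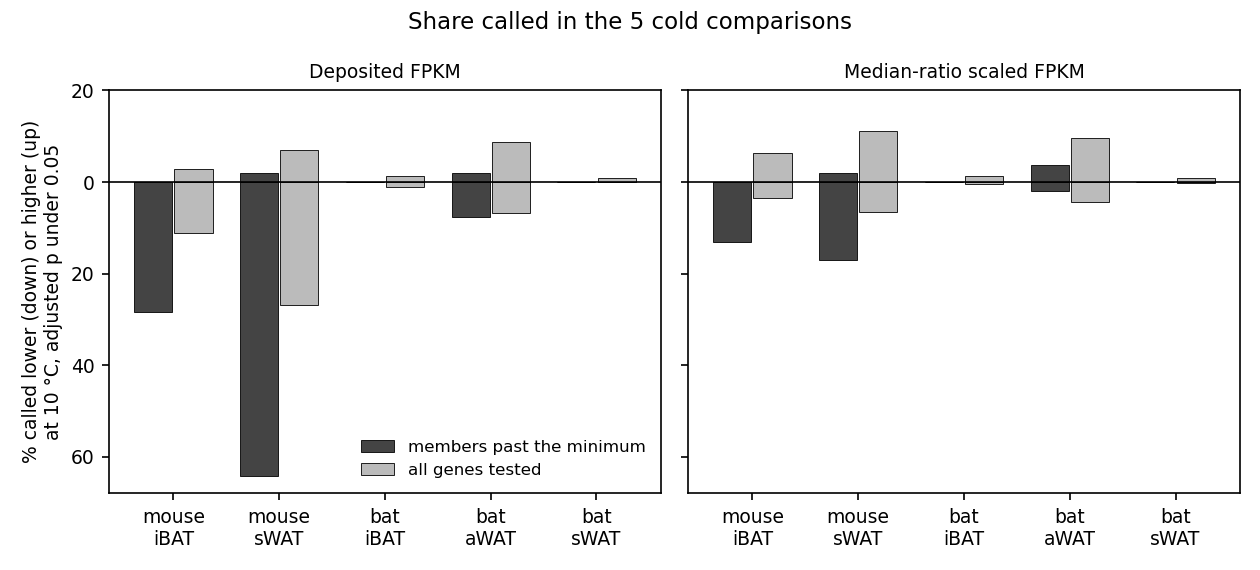
Percent of members past the FPKM minimum (dark bars, 53 per species) and of all genes tested (light bars) called higher (up) or lower (down) at 10 °C in the 5 cold comparisons, on the deposited scale (left) and after median-ratio scaling (right). In mouse iBAT 28.3% of members were called lower beside 11.2% of genes, and in bat iBAT and sWAT no member was called on either scale.

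Among SR proteins, Srsf5 had the largest fall in mouse iBAT. It measured 76.4 and 70.9 FPKM warm and 27.7 and 23.6 FPKM cold in iBAT (−1.19 ± 0.22, adjusted p = 0.0137), with no overlap. In sWAT it went from 156 and 142 to 84.2 and 54.3 FPKM (−0.76 ± 0.22, adjusted p = 0.0193). Both calls held after median-ratio scaling (adjusted p = 0.0153 and 0.0393). Of its 50-base stretches, 29.2% also occur in another annotated gene, so its level is uncertain where reads could be split. Srsf11, which joins SR proteins to the spliceosome, was at 19.8 FPKM in both warm iBAT libraries and at 9.21 and 8.97 FPKM in the cold ones (−0.75 ± 0.14, adjusted p = 0.0116). Srsf2 fell in iBAT from 54.0 and 54.5 to 32.3 and 28.4 FPKM (−0.52 ± 0.16, adjusted p = 0.0276), and Srsf1, a regulator of splice site choice, from 13.1 and 14.6 to 8.14 and 6.82 FPKM (−0.51 ± 0.17, adjusted p = 0.0287). Neither of these 2 calls held after median-ratio scaling (adjusted p = 0.0999 and 0.0955).

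Of the 9 Srsf genes tested in mouse, 4 fell in iBAT (44.4%, beside 11.2% of all genes called lower). In sWAT 8 fell (88.9% beside 26.8%). After median-ratio scaling 2 fell in iBAT (22.2% beside 3.56%) and 1 in sWAT (11.1% beside 6.64%). Srsf3, another SR protein, was called in sWAT and did not pass in iBAT. In sWAT it went from 71.9 and 66.2 to 46.2 and 27.7 FPKM (−0.56 ± 0.27, adjusted p = 0.0399). In iBAT its values were 20.1 and 16.4 FPKM warm and 19.7 and 14.4 FPKM cold, which overlap. The difference between depots in these responses was not called for any of the 53 members (5 had an unadjusted p under 0.05, 9.43% beside 20.5% of all genes), where 0.0936% of all genes were called. Srsf9 passed the test in neither cold comparison.

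Among hnRNP genes, Hnrnph3, a member of the hnRNP H group, fell in both mouse fats on both scales. It went from 11.8 and 10.8 to 4.95 and 5.36 FPKM in iBAT (−0.70 ± 0.16, adjusted p = 0.0183) and from 15.5 and 14.2 to 8.16 and 6.11 FPKM in sWAT (−0.61 ± 0.16, adjusted p = 0.0149). It overlaps Rufy2 on the opposite strand, and the sources used here do not say whether the counting used strand. In iBAT it was the only 1 of 14 hnRNP genes called, a share (7.14%) under the 11.2% of all genes called lower. In sWAT 11 of the 14 fell (78.6% beside 26.8% of all genes). After median-ratio scaling 1 fell in iBAT (Hnrnph3, 7.14% beside 3.56%) and 2 in sWAT (Hnrnpf and Hnrnph3, 14.3% beside 6.64%). Hnrnpu, a nuclear scaffold protein, measured 77.4 and 72.5 FPKM in warm sWAT and 52.4 and 33.8 FPKM in cold sWAT (−0.45 ± 0.25, adjusted p = 0.0454, and 0.203 after median-ratio scaling). Hnrnpk, which binds C-rich RNA, passed in neither fat, with 43.0 and 37.7 FPKM warm and 32.6 and 23.2 FPKM cold in sWAT, and 34.5% of its 50-base stretches occur in other genes.

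Of the 29 Rbm genes tested in mouse, 9 fell in iBAT (31%, beside 11.2% of all genes called lower). In sWAT 14 fell (48.3% beside 26.8%) and 1 rose (3.45% beside 7.06% of all genes called higher). After median-ratio scaling 3 fell in iBAT (10.3% beside 3.56%). In sWAT 6 then fell (20.7% beside 6.64%) and 1 rose (3.45% beside 11.1%). Rbm5, a splicing factor linked to the control of cell death, went from 16.0 and 15.5 to 6.77 and 4.52 FPKM in iBAT (−1.06 ± 0.23, adjusted p = 0.0188). Rbm39, a partner of the factor that recognises the 3′ splice site, went from 54.7 and 56.9 to 22.2 and 17.7 FPKM in sWAT (−1.08 ± 0.20, adjusted p = 0.0114). Rbmx, an hnRNP-like protein encoded on the X chromosome, went from 15.0 and 11.2 to 5.82 and 3.65 FPKM in iBAT (−1.01 ± 0.31, adjusted p = 0.0386). Rbms1 stood at 14.9 and 14.7 FPKM warm and 5.99 and 6.67 FPKM cold in iBAT (−0.81 ± 0.13, adjusted p = 0.00868). In each of these the cold libraries lay below the warm ones. Rbm5, Rbms1 and Rbm39 held after median-ratio scaling in the fat named (adjusted p = 0.0297, 0.0253 and 0.0213), and Rbmx did not (adjusted p = 0.0563).

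Rbm38, a target of p53 that acts on mRNA stability, had the largest fall in mouse sWAT, from 33.8 and 30.0 to 15.9 and 6.07 FPKM (−1.22 ± 0.39, adjusted p = 0.0277). The male cold library, poor in lymphocyte markers, was the lower of the 2. Without it the change was −0.70, without the female one −1.75, and after median-ratio scaling the call was lost (adjusted p = 0.0545). Rbm33 went from 9.01 and 9.21 to 3.36 and 3.05 FPKM in sWAT (−0.90 ± 0.18, adjusted p = 0.0115) and held after scaling (adjusted p = 0.0222).

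Against this direction, 1 mouse member rose in sWAT (1.89% on either scale) and none in iBAT. Of all genes, 7.06% were called higher in sWAT and 2.84% in iBAT. After median-ratio scaling these shares were 11.1% and 6.43%, so the members' share was under that of all genes. Rbm47, an RNA-binding cofactor of mRNA editing, measured 1.95 and 2.80 FPKM in warm sWAT and 4.10 and 4.95 FPKM in cold sWAT (1.08 ± 0.19, adjusted p = 0.0326, and 0.0302 after median-ratio scaling). It is under the level asked of members named by their change. It was named from the core list, which was chosen with earlier results of these data known. In iBAT it was at 1.95 and 2.27 FPKM warm and 3.49 and 3.30 FPKM cold, with no overlap, but did not pass (0.80 ± 0.19, adjusted p = 0.119). Its gene overlaps unnamed transcripts on both strands.

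**Figure D3:**
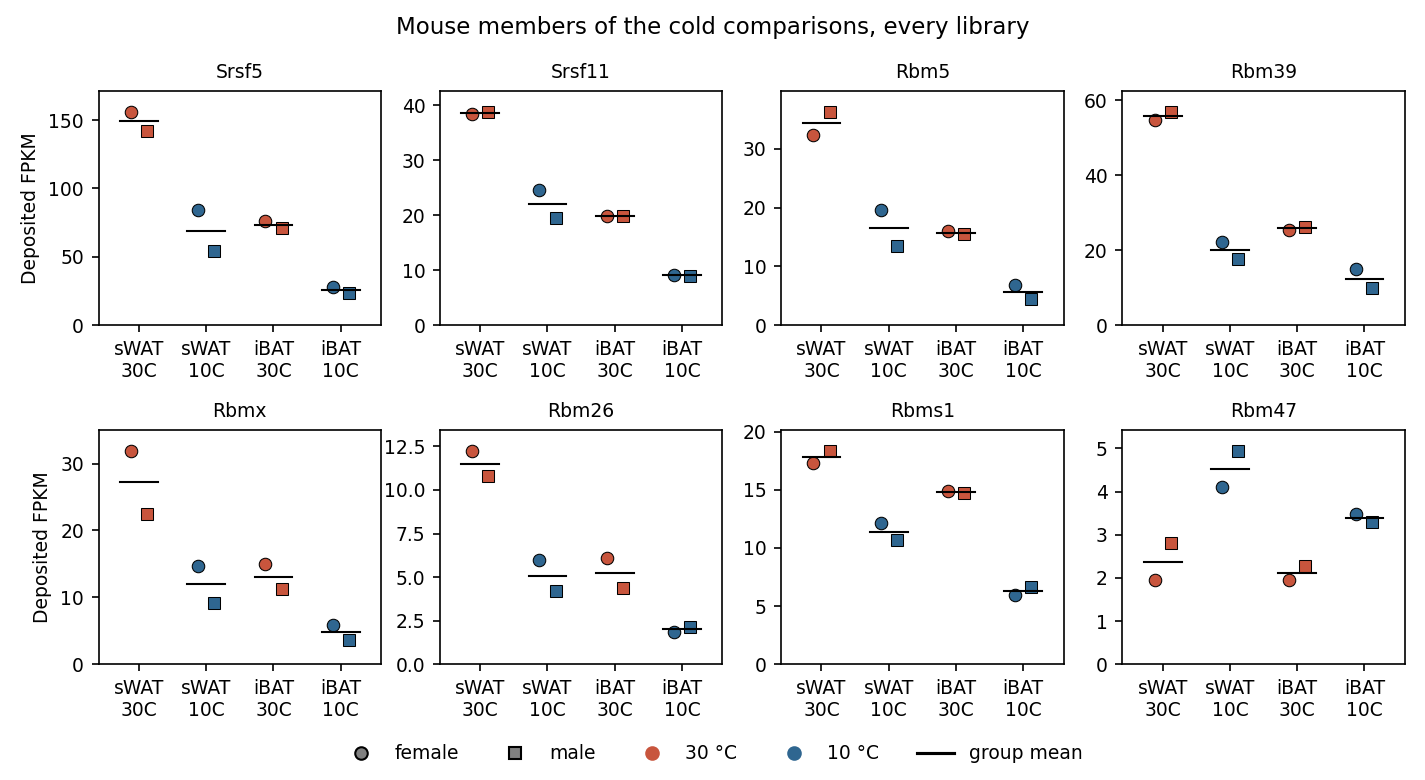
Deposited FPKM (vertical axes, each from 0) of 8 members in the 8 mouse libraries by depot and temperature; circles are females, squares males, and bars the mean of 2. Srsf5, Srsf11, Rbm5, Rbm39, Rbmx, Rbm26 and Rbms1 are lowest in cold iBAT, and Rbm47 is higher in the cold in both depots (4.10 and 4.95 against 1.95 and 2.80 FPKM in sWAT).

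The wider splicing machinery was followed in lists that hold no member. In mouse iBAT, 8 of 18 kinases and partners of SR proteins fell and none rose (44.4%, beside 11.2% of all genes called lower), and 5 fell after median-ratio scaling (27.8% beside 3.56%). Clk1, a kinase that releases SR proteins from nuclear speckles, went from 29.6 and 31.2 to 12.5 and 8.18 FPKM (−1.20 ± 0.19, adjusted p = 0.0102). Luc7l, a U1-associated factor, went from 13.1 and 12.3 to 4.80 and 3.41 FPKM (−1.14 ± 0.25, adjusted p = 0.0200), and Srrm2, a scaffold of nuclear speckles, from 77.2 and 80.4 to 34.2 and 31.0 FPKM (−0.95 ± 0.17, adjusted p = 0.0120). In sWAT 15 of the 18 fell (83.3%, beside 26.8% of all genes) and 3 after scaling (16.7% beside 6.64%): Clk4 (−1.03 ± 0.20), Srrm2 (−0.69 ± 0.17) and Clk1, which went from 63.9 and 63.0 to 25.0 and 23.1 FPKM. Both Clk1 and Srrm2 were lower in cold than in warm libraries of each mouse fat without overlap.

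Of 32 core spliceosome genes, 1 fell in iBAT (3.12%, beside 11.2% of all genes) and 15 in sWAT (46.9% beside 26.8%). After scaling the counts were 0 in iBAT, beside 3.56% of all genes, and 2 in sWAT (6.25% beside 6.64%), so both counts in iBAT and the scaled one in sWAT were not above the share of all genes. Sf3b1, the U2 subunit that holds the branch point, measured 72.7 and 66.7 FPKM in warm sWAT and 35.6 and 23.3 FPKM in cold sWAT (−0.88 ± 0.21, adjusted p = 0.0151). The difference between the fats in these counts was not tested. Of 31 other splicing regulators, 8 fell in iBAT (25.8% beside 11.2%). In sWAT 20 fell (64.5% beside 26.8%) and 1 rose (3.23%, beside 7.06% of all genes called higher). After scaling 4 fell in iBAT (12.9% beside 3.56%). In sWAT 5 then fell (16.1% beside 6.64%) and 1 rose (3.23% beside 11.1%). Khdrbs3, a splicing regulator of the STAR family, rose in sWAT from 4.11 and 2.74 to 12.5 and 17.2 FPKM (2.21 ± 0.24, adjusted p = 0.0105). Of 10 cold shock domain and stress granule genes, 4 fell in iBAT (40%, beside 11.2% of all genes) and 1 rose (10% beside 2.84%). In sWAT 2 fell (20% beside 26.8%) and none rose. After scaling 1 fell in iBAT (10% beside 3.56%) and 2 rose (20% beside 6.43%). In sWAT 1 then rose (10% beside 11.1%) and none fell, so the sWAT shares were not above those of all genes. Pabpc1, the poly(A)-binding protein of the cytoplasm, fell in iBAT (−0.98 ± 0.15, adjusted p = 0.00868), while G3bp2, which nucleates stress granules, was the gene that rose (0.79 ± 0.13, adjusted p = 0.0495).

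In the bat, cold called few members. None of the 53 was called in iBAT or in sWAT, where limma called 2.20% and 1.02% of all genes. At an unadjusted p under 0.05 there were 12 members in iBAT (22.6%, beside 19.5% of all genes) and 3 in sWAT (5.66% beside 10.5%). In aWAT 5 of the 53 were called, 1 higher and 4 lower, where 15.3% of all genes were called, so the members' share (9.43%) was not above that of all genes. After median-ratio scaling 3 were called, against 13.9% of all genes: Hnrnpl, Hnrnpdl and Hnrnph2, the last of which rose (0.54, adjusted p = 0.0421) and was not called on the deposited scale (adjusted p = 0.134).

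Hnrnpdl, an hnRNP D-like protein, fell in bat aWAT from 27.1 and 24.2 to 9.33 and 16.3 FPKM (−0.86 ± 0.25, adjusted p = 0.0244). Rbm5 fell there from 20.3 and 22.5 to 12.5 and 15.6 FPKM (−0.44 ± 0.16, adjusted p = 0.0357), Hnrnph3 from 19.1 and 22.9 to 10.9 and 13.5 FPKM (−0.60 ± 0.19, adjusted p = 0.0309), and Rbm28, a nucleolar protein, from 10.8 and 10.4 to 4.68 and 7.00 FPKM (−0.64 ± 0.23, adjusted p = 0.0450). In all 4 genes the cold female library was the lowest of the aWAT libraries. It also had the lowest aWAT sums of endothelial (191 and 160 FPKM warm, 81.0 and 122 FPKM cold), macrophage (192 and 133 against 79.6 and 146), fibroblast (550 and 605 against 339 and 521) and nerve markers (75.2 and 62.6 against 10.7 and 19.7). The part of those cells in these 4 changes was not tested. Each of these calls passed in only 1 of the 4 fits that left out an aWAT library, and Rbm5, Hnrnph3 and Rbm28 also missed the threshold after median-ratio scaling (adjusted p = 0.0783, 0.0857 and 0.0514). Of the wider lists, 3 of 18 SR protein kinases and partners fell in bat aWAT (16.7%, beside 6.67% of all genes called lower). They were Clk1 (−0.81 ± 0.20, adjusted p = 0.0119), Clk4 (−0.71 ± 0.25) and Srrm2 (−0.68 ± 0.16). Of 32 core spliceosome genes 2 fell (6.25%), a share not above that of all genes. After median-ratio scaling 2 of the 18 fell (11.1%, beside 4.25% of all genes). Of the 32, none then fell and 1 rose (3.12%, beside 9.67% of all genes called higher). In bat iBAT Srrm2 was the only gene of these lists called (−0.67 ± 0.16, adjusted p = 0.0401), and it was not called after median-ratio scaling. In bat sWAT Taf15, an RNA-binding protein, fell (−1.42 ± 0.24, adjusted p = 0.0243) and Srpk3, an SR protein kinase of muscle, rose (1.57 ± 0.26, adjusted p = 0.0120).

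**Figure D4:**
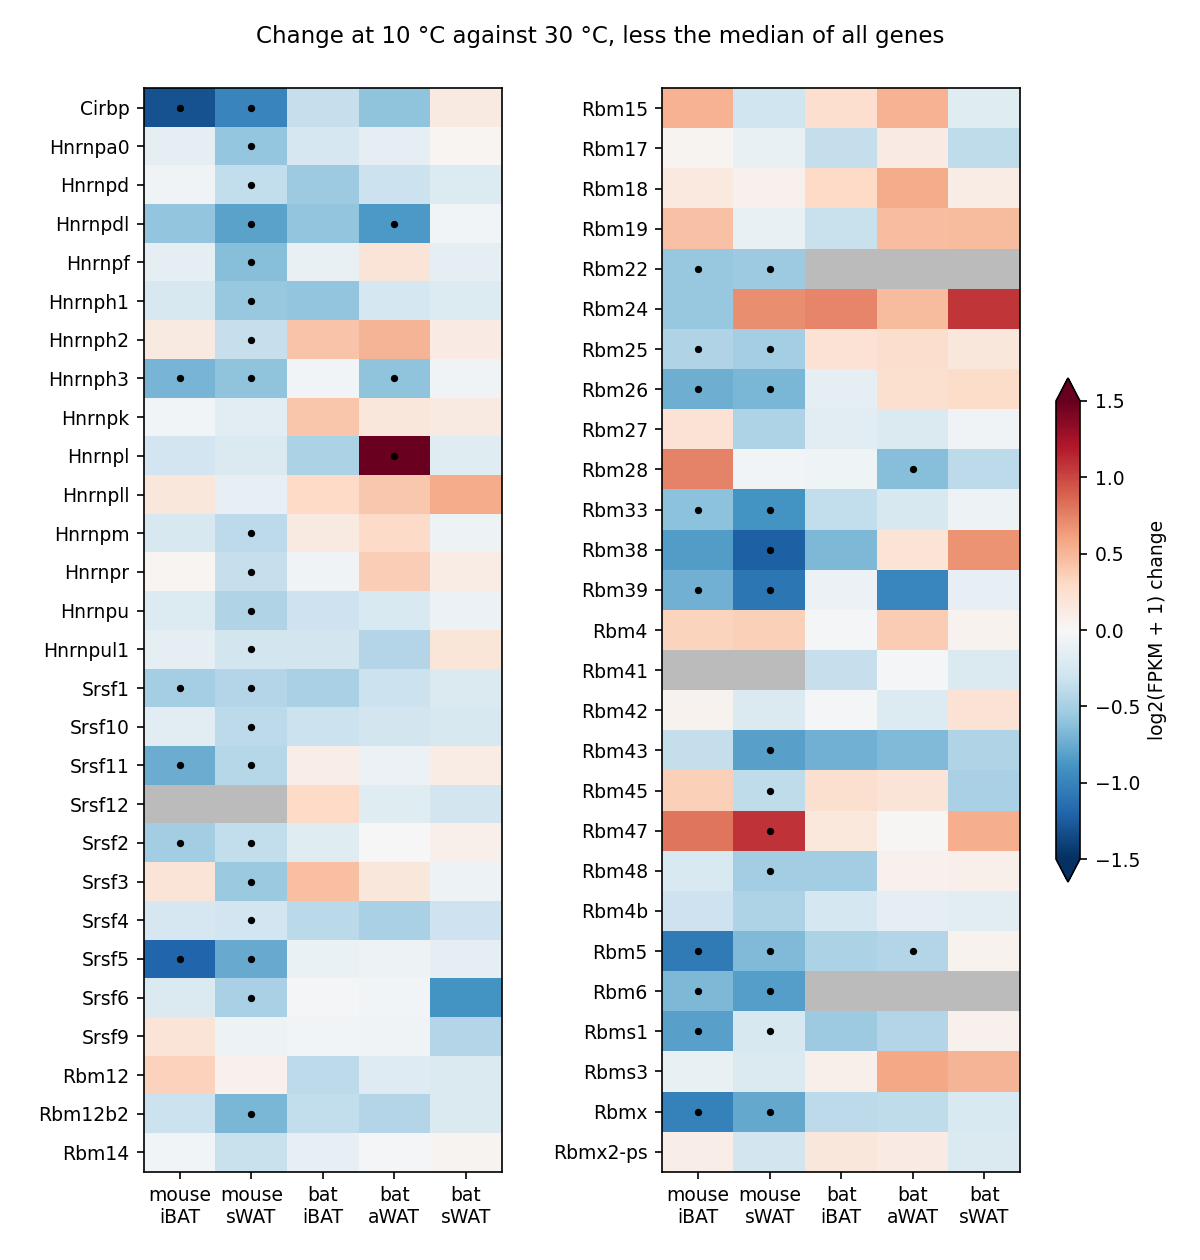
Change of every tested member at 10 °C against 30 °C in the 5 cold comparisons (columns), as log2(FPKM + 1) less the median of all genes (colour, cut at 1.5 either way); a dot marks an adjusted p under 0.05 on the deposited scale, and grey a species in which the member missed the FPKM minimum. Dots lie mostly in the mouse columns (15 and 35), with 5 in bat aWAT and none in bat iBAT or sWAT.

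Skeletal muscle markers in bat sWAT summed to 13.1 and 2.78 FPKM in the warm and to 318 and 636 FPKM in the cold. Rbm24, a splicing regulator of heart and skeletal muscle, went from 0.682 and 0.906 to 1.77 and 4.59 FPKM in these libraries (1.07 ± 0.32, adjusted p = 0.219). In mouse iBAT, where the muscle sum was 1898, 1512, 3.55 and 900, it measured 1.53, 1.18, 0.0331 and 0.605 FPKM in the same order of libraries. The male cold bat iBAT library had 1.69 FPKM of Rbm24 with a muscle sum of 1.99, so the gene did not follow the markers in every library. Rbm20, the other muscle splicing factor of the set, reached at most 0.537 FPKM in any library.

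The member with the largest change in the bat was Hnrnpl, which encodes hnRNP L, a protein that binds CA repeats and shapes splicing. It lies at chr7:28808541-28822266 on the forward strand of GRCm38, and Ech1, an enzyme gene of fatty acid oxidation that was not analysed here, begins 2950 bases beyond it. The sources used here do not say how bat reads were assigned to genes, and whether reads of this neighbour are among those counted for Hnrnpl in the bat was not tested, so every bat Hnrnpl value carries that doubt. In aWAT it measured 59.2 and 70.8 FPKM at 30 °C and 181 and 153 FPKM at 10 °C. The cold libraries lay far above the warm ones (1.48 ± 0.20, adjusted p = 0.00250, and 1.52 with an adjusted p of 0.00383 after median-ratio scaling). The rise passed the threshold without each 1 of the 4 aWAT libraries, with values from 1.26 to 1.71.

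Hnrnpl was also the member that set bat depots apart. In iBAT it stood at 383 and 394 FPKM in the warm against 226 and 300 FPKM in the cold, and in sWAT at 54.0 and 59.2 FPKM in the warm against 46.7 and 58.4 FPKM in the cold. Every iBAT library was above every sWAT and aWAT library. Brown against subcutaneous fat, the difference was 2.83 ± 0.20 at 30 °C (adjusted p = 2.98e-05) and 2.56 ± 0.20 at 10 °C (adjusted p = 3.74e-05). Brown against abdominal fat it was 2.72 ± 0.20 in the warm (adjusted p = 7.06e-05) and did not pass in the cold (0.79 ± 0.20, adjusted p = 0.205), when aWAT had risen. Within iBAT the cold libraries were the lower ones but did not pass (−0.47 ± 0.20, adjusted p = 0.157). In sWAT warm and cold overlapped (−0.18 ± 0.20, adjusted p = 0.892).

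The cold response of Hnrnpl in bat aWAT exceeded that in bat sWAT by 1.65 ± 0.28 (adjusted p = 0.0222, and 0.0269 after median-ratio scaling). It passed in 2 of 8 fits that left out 1 library and not in a fit of these groups alone. It was the only member so called, where 4.41% of all genes were. For bat iBAT less sWAT no member was called (4 at an unadjusted p under 0.05, 7.55% beside 11.9% of all genes), where 0.571% of all genes were. Ucp1, the uncoupling protein of heat-producing fat, was at 3.18 and 2.67 FPKM in warm aWAT, 7184 and 2939 FPKM in cold aWAT, and at least 2670 FPKM in every iBAT library, while sWAT stayed at or under 1.20 FPKM. High Hnrnpl and high Ucp1 thus fell in the same 6 bat libraries, although Ucp1 was higher in cold than in warm iBAT and Hnrnpl was not. In the mouse, Hnrnpl was highest in warm sWAT (59.1 and 65.0 FPKM), where Ucp1 was at 1.19 and 1.53 FPKM, and lowest in cold iBAT (17.9 and 22.0 FPKM), where Ucp1 was at 3688 and 5119 FPKM.

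**Figure D5:**
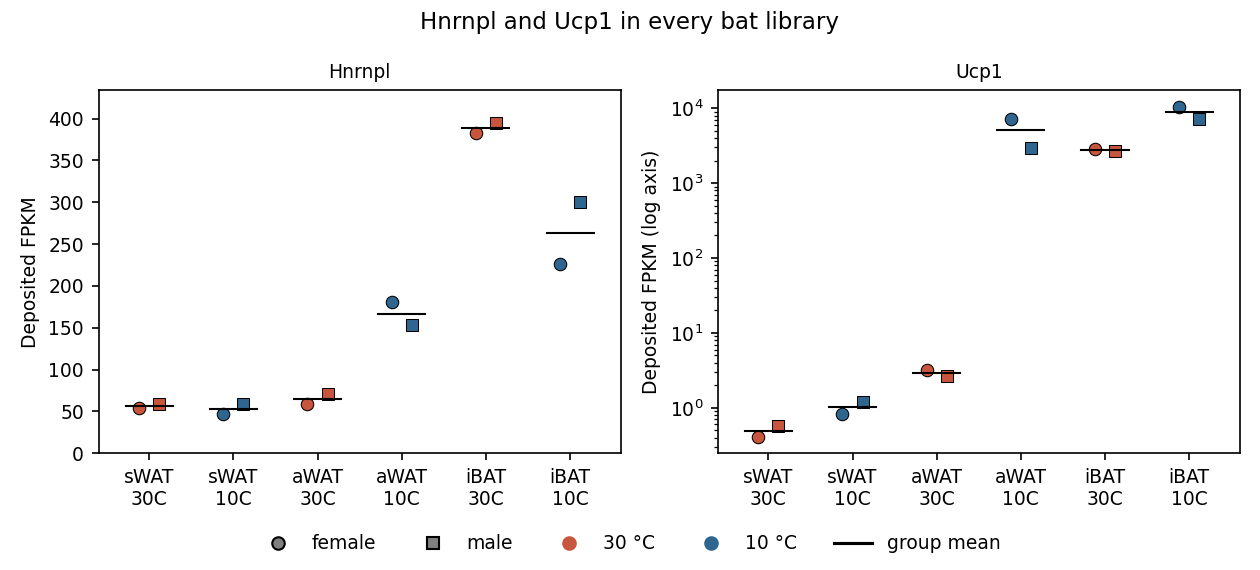
Deposited FPKM of Hnrnpl (left, from 0) and of Ucp1 (right, log axis) in the 12 bat libraries by depot and temperature; circles are females, squares males, and bars the mean of 2. Both genes are high in cold aWAT and in iBAT and low in sWAT and warm aWAT, with Hnrnpl at 181 and 153 FPKM in cold aWAT against 59.2 and 70.8 FPKM in warm aWAT.

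Between mouse depots at 30 °C, 43 of the 53 members were lower in iBAT than in sWAT and none was higher, where 48.0% of all genes were called lower. Of these 43, Rbm18 and Hnrnpll lay above the median of all genes. After median-ratio scaling 9 were lower, against 21.4% of all genes, so the members' share (17.0%) was then under that of all genes. The 9 were Hnrnpa0, Hnrnph1, Hnrnpm, Hnrnpu, Rbm43, Rbm45, Rbms3, Srsf3 and Srsf6. Rbm43 measured 2.22 and 1.86 FPKM in iBAT and 11.4 and 9.36 FPKM in sWAT (−1.33 ± 0.24, adjusted p = 0.00205). Srsf3 measured 20.1 and 16.4 FPKM against 71.9 and 66.2 FPKM (−1.30 ± 0.27, adjusted p = 0.00266), and Hnrnph1, which binds G-rich RNA, 28.7 and 28.3 FPKM against 96.6 and 106 FPKM (−1.22 ± 0.30, adjusted p = 0.00362). The sWAT libraries in this comparison are those with the highest lymphocyte and cell division sums. Rbms3, an mRNA-binding protein of connective tissue, was listed at 0.706 and 0.585 FPKM in iBAT and 4.06 and 3.00 FPKM in sWAT.

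At 10 °C, 26 of the 53 were lower in mouse iBAT than in sWAT and none was higher, where 27.6% of all genes were called lower, and after median-ratio scaling 7 were, against 9.36%. Cirbp was lower in iBAT, with a change of −1.18 ± 0.28 (adjusted p = 0.0103, and 0.0434 after scaling), or −0.73 without the cold female iBAT library. Rbm5 differed by −0.94 ± 0.23 (adjusted p = 0.00925) and Hnrnph1 by −0.92 ± 0.30 (adjusted p = 0.0197), the latter not after scaling (adjusted p = 0.0709) and by −0.58 without the cold female sWAT library. Hnrnph1 in the cold sWAT libraries was 73.4 FPKM in the female and 37.3 FPKM in the male. Leaving out 1 cold library moved the count of members called both ways. It was lower without either cold iBAT library or the female cold sWAT library, and higher without the male cold sWAT library. The count of all genes called moved in the same direction each time.

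Between bat depots the share of members called was under that of all genes in each comparison that called any member. For iBAT against sWAT at 30 °C 4 of 53 were called, 2 in each direction (7.55%), and 5 after scaling, where 24.0% of all genes were called on either scale. At 10 °C 14 were called (26.4%), where 39.9% of all genes were. Of the 14, 2 were higher and 12 lower in iBAT, where 2950 of the 4400 genes called were lower. After scaling 8 members were called, where 36.7% of all genes were. For iBAT against aWAT 4 were called at 30 °C (20.2% of all genes), 2 of which held after scaling (18.6%), and none at 10 °C (0.816% of all genes, with 4 members at an unadjusted p under 0.05, 7.55% beside 12.2% of all genes). For aWAT against sWAT none was called at 30 °C (0.889% of all genes, with 0 members at an unadjusted p under 0.05, beside 7.81% of all genes) and 6 at 10 °C (21.9% of all genes), 4 of which held after scaling (21.1%).

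Beside Hnrnpl, the bat members that differed between depots were mostly lower in iBAT. So were most of all genes called on the deposited scale, with 2950 of 4400 against sWAT at 10 °C and 1386 of 2230 against aWAT at 30 °C. After median-ratio scaling 1986 of 4050 and 984 of 2050 genes were lower. Rbm28 measured 17.6 and 12.7 FPKM in warm sWAT, 10.8 and 10.4 FPKM in warm aWAT and 4.72 and 5.45 FPKM in warm iBAT, 3 levels with no overlap. Its difference between iBAT and sWAT was −1.33 ± 0.23 (adjusted p = 0.00188). Rbm42, a partner of hnRNP K, was at 11.7 and 11.6 FPKM in warm sWAT and 7.04 and 6.57 FPKM in warm iBAT (−0.63 ± 0.19, adjusted p = 0.0218), but shares 92.3% of its 50-base stretches with an overlapping gene. Hnrnpul1, an hnRNP U-like protein, was at 46.5 and 46.1 FPKM in cold sWAT and 18.2 and 22.6 FPKM in cold iBAT (−0.89 ± 0.22, adjusted p = 0.00263). Rbm38 went the other way, with 11.3 and 10.3 FPKM in warm sWAT and 19.2 and 36.5 FPKM in warm iBAT (1.29 ± 0.38, adjusted p = 0.0395, and 0.84 without the male iBAT library). Srsf6, an SR protein, was not called in any bat depot or cold comparison, with 46.3 and 46.0 FPKM in warm sWAT and 24.4 and 27.0 FPKM in cold sWAT.

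As a description over all libraries of a species, on the median-ratio scale, the members whose log2 level followed that of Cirbp most closely in the 8 mouse libraries were Rbm26 (r = 0.96), Srsf11 (0.93) and Srsf5 (0.90). The lowest r were those of Rbm47 (−0.83), Rbm18 (−0.75) and Srsf9 (−0.68). In the 12 bat libraries they were Hnrnpul1 (0.86), Hnrnpdl (0.82) and Rbms1 (0.80), and at the other end Rbm45 (−0.82), Hnrnpm (−0.73) and Rbm4 (−0.63). These libraries share depots, temperatures and scale, so the values describe this set only. Hnrnpm, Rbm4 and Srsf5 are among 15 members that share at least 10% of their 50-base stretches with another gene.

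By group, 51 of the 53 mouse members had their highest mean in warm sWAT and 45 their lowest in cold iBAT on the deposited scale, as did 65.9% of all genes in each case. After median-ratio scaling, 36 were highest in warm sWAT and 26 lowest in cold iBAT, beside 35.9% and 33.4% of all genes. In the bat the highest mean was spread over all 6 groups on both scales, with 20 members highest in warm aWAT and 28 lowest in cold iBAT on the deposited scale (21.8% and 37.9% of all genes), and 9 and 14 after scaling (13.3% and 22.4% of all genes).

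Levels per length differed between families within a species. In mouse the median level of a member over the 8 libraries ran from 0.591 FPKM (Rbm24) to 23.8 FPKM (Rbm39) in the Rbm genes, from 7.65 FPKM (Srsf10) to 73.6 FPKM (Srsf5) in the Srsf genes and from 5.81 FPKM (Hnrnpll) to 52.0 FPKM (Hnrnpf) in the Hnrnp genes. In the bat the ranges were 0.589 FPKM (Rbm47) to 18.7 FPKM (Rbm17), 1.66 FPKM (Srsf12) to 78.6 FPKM (Srsf5) and 2.58 FPKM (Hnrnpd) to 112 FPKM (Hnrnpl). Symbols of 54 of the 59 members are in the RefSeq gene table of the bat assembly ASM189008v1.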

How the data were processed

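RNA-seq of fat was deposited as FPKM for 14871 mouse gene identifiers in 20 libraries, and the authors' scaling is known only by that unit. Per the labels' protocols, a kit for lipid-rich tissue gave total RNA for Illumina libraries. CASAVA 1.8 is named in the submitters' processing notes, and the sources used here do not give the aligner, the counter, the build or how bat reads were assigned to mouse genes. Symbols were found for 14723 identifiers. The fits held genes that reached 1 FPKM in 2 libraries of a species, 10689 in mouse and 11025 in bat. For each species, log2(FPKM + 1) of all groups was fitted with limma 3.58.1 in R 4.3.3 with a variance trend, two-sided, with Benjamini-Hochberg adjustment over all genes. This scale understates changes of low genes. The fit was tested on simulated data. Groups of 2 leave 4 residual degrees of freedom in mouse and 6 in bat, moderated across genes. Members and lists were chosen with earlier results of these data known. Named members are, per comparison, up to 4 (cold) or 3 (depots) each way with the largest called change, no overlap of libraries and a group mean of at least 5 FPKM, plus a core list and the 3 most and least like Cirbp. Median-ratio scaling, quantile normalization, a pseudocount of 0.1, no filter, sex as a block, only the groups compared, no trend and each library left out were the alternatives. Annotation and coding sequences are from GENCODE M21. A gene of the wider lists is not reported here.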

Additional observations from a re-analysis of the deposited data

Results flagged for a closer look

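The cold response of Hnrnpl differed between bat depots by a test of the difference itself: aWAT less sWAT was 1.65 ± 0.28 on the log2 scale (limma, adjusted p = 0.0222). In sWAT Hnrnpl went from 54.0 and 59.2 to 46.7 and 58.4 FPKM, and in aWAT from 59.2 and 70.8 to 181 and 153 FPKM. Leaving out each of the 8 libraries in turn gave values from 1.44 to 1.87, of which 2 passed the threshold (adjusted p from 0.0237 to 0.0929). Groups held 2 libraries, so no group was searched for a single library far from the others.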

How the results depend on the processing

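Counts of members called moved by over 1.5 times with these settings. The count of all genes called moved the same way each time, except for the aWAT less sWAT response with no filter. Median-ratio scaling gave 7 for mouse iBAT and 10 for mouse sWAT in the cold, 3 for bat aWAT in the cold, 9 and 7 for mouse iBAT against sWAT at 30 °C and 10 °C, 8 for bat iBAT against sWAT at 10 °C and 2 for bat iBAT against aWAT at 30 °C. Quantile normalization gave 5 for mouse iBAT in the cold, 2 for bat iBAT against aWAT at 30 °C, and 25 and 8 for the mouse depots. Fitting only the groups compared gave 28 and 0 for mouse iBAT and sWAT in the cold, 1 for bat aWAT in the cold, 12 for the mouse depots at 10 °C, 2 for bat iBAT against aWAT at 30 °C, 1 for bat aWAT against sWAT at 10 °C and 0 for the aWAT less sWAT response. With no filter, 1 member was called in bat sWAT (Rbm6), 1 in bat iBAT against aWAT at 10 °C (Rbm20) and 2 in the aWAT less sWAT response (Hnrnpl and Rbm6).

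Leaving out 1 library gave 0 members for mouse iBAT, 0 to 41 for mouse sWAT and 1 to 8 for bat aWAT in the cold, 23 to 36 and 2 to 33 for the mouse depots at 30 °C and 10 °C, 2 to 3 and 6 to 10 for bat iBAT against sWAT, 1 to 2 for bat iBAT against aWAT at 30 °C, 1 to 8 for bat aWAT against sWAT at 10 °C, 0 to 5 for the mouse difference of responses and 0 to 2 for the aWAT less sWAT one.

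Cirbp in mouse iBAT was −1.25 with quantile normalization (adjusted p = 0.0516) and −1.75 to −0.86 with 1 library left out. In mouse sWAT it was −0.91 after median-ratio scaling (adjusted p = 0.0689), −0.97 in the groups alone (adjusted p = 0.117) and −1.04 to −0.94 with 1 library left out. In the bat it ran from −0.74 to 0.039 in iBAT, from −0.045 to 0.32 in sWAT and from −0.92 to −0.30 in aWAT with 1 library left out, so its sign in bat iBAT and sWAT rests on single libraries. The causes of these shifts were not tested.

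Sex as a replicate block gave 16, 41 and 7 members for mouse iBAT, mouse sWAT and bat aWAT in the cold. Same-sex deviations correlated between groups at −0.02 to 0.47 in the mouse and at −0.19 to 0.55 in the bat, so sex was not taken as a pairing. Of 34 named changes other than the cold response of Cirbp, none reversed under any alternative. The call was kept in 26 with median-ratio scaling, 30 with quantile normalization, 34 with the pseudocount of 0.1, 30 with no filter, 33 with no trend, 33 with the sex block and 19 with only the groups compared. With 1 library left out, 76 of 140 values kept the call and 64 lost it.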

Other observations

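Female and male libraries of 1 group differed in the members. On the deposited scale, 44 of 53 members were higher in the female than in the male library of cold mouse sWAT, beside 68.4% of all genes, and 35 after median-ratio scaling, beside 50.2%. In bat aWAT 33 of 53 were higher in the female in the warm (53.8% of all genes) and 9 in the cold (35.4% of all genes) on the deposited scale, and 26 and 17 after scaling (46.0% and 53.2%). Each group holds 1 library of each sex, so sex and library cannot be told apart.

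Rbm15, which takes part in the methylation of mRNA, was lowest in bat sWAT (0.728 to 1.14 FPKM) and reached 4.14 and 5.79 FPKM in the male iBAT libraries against 2.02 and 1.83 FPKM in the female ones. It was chosen after its values were seen.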
